A study of Mus musculus with 6 samples.

Results

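MHC class I loading and the immunoproteasome are described here through 10 genes: the transactivator Nlrc5, the heavy chains H2-K1 and H2-D1, the light chain B2m, the peptide transporter genes Tap1 and Tap2, the loading factor Tapbp, and the immunoproteasome subunits Psmb8, Psmb9 and Psmb10. They were found by their symbols among the 23669 rows of the authors' table, and 9 of the 10 had values; Tap2 was listed with none. The genes were chosen with values of this same comparison in view, so their own differences between genotypes are given as a description, without a test.

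RNA-seq was made from kidneys of mice at postnatal day 3. Of the 6 libraries, 3 came from R26NICD2/+ Kspcre mice, called NICD2 below, and 3 from wild type mice. NICD2 mice carry 1 copy of an allele at the Rosa26 locus that encodes the intracellular domain of NOTCH2, the part of the receptor that enters the nucleus and switches on target genes, together with Kspcre, a transgene in which the Ksp-cadherin (Cdh16) promoter, active in kidney tubule epithelium, drives Cre recombinase. Kidney cells outside that lineage are therefore in the libraries without the driver, and the labels do not say whether the wild type mice carried the allele or the recombinase alone, nor the strain, nor whether animals were pooled. They also do not say that libraries of a group came from separate animals, so p-values measure the spread between these libraries, which may be technical in part.

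Values are FPKM, in which fragments are divided by transcript length and sequencing depth, so they can be set side by side between genes. A difference is NICD2 minus wild type on the scale of log2(FPKM + 1), with a standard error (SE); it understates the change of genes with low values. A gene is called where the Benjamini-Hochberg adjusted p of limma, a linear model fitted over all genes, lay under 0.05 (two-sided); 13765 genes were tested, those that reached 1 FPKM in 3 or more libraries. Depth, estimated from the steps between low values, lay between 15600000 and 17150000 fragments a library. The transgene row (human NOTCH2) read 75.44, 79.59 and 60.17 FPKM in the NICD2 libraries and 0, 0.03 and 0.03 FPKM in the wild type ones. The Notch target Nrarp had 170.83, 142.82 and 120.20 FPKM in NICD2 and 20.55, 17.72 and 17.42 FPKM in wild type (adjusted p = 6.405e-06, limma). For 158 genes, 1.15% of those tested, NICD2 replicate 1 was at least 1.5 times the mean of NICD2 replicates 2 and 3, on FPKM + 1. The same count was not made for the other libraries. Results are given with and without NICD2 replicate 1. The Y-linked genes Uty, Kdm5d, Ddx3y and Eif2s3y were at 0 FPKM in NICD2 replicate 3 and at 4.56 FPKM or more in the other 5 libraries. The groups were thus not matched for Y-linked RNA, and the part of this in the differences was not tested.

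MHC class I molecules show peptides from a cell's own proteins on its surface to CD8 T cells. The proteasome cuts the proteins, the TAP transporter carries the peptides into the endoplasmic reticulum, and tapasin (Tapbp) holds the transporter to empty class I molecules, each made of a polymorphic heavy chain and beta-2-microglobulin. In cells exposed to interferon-gamma the catalytic subunits of the proteasome are exchanged for Psmb8, Psmb9 and Psmb10, which form the immunoproteasome. NLRC5 does not bind DNA by itself; it is recruited to class I promoters by the factors on their X and Y boxes (the RFX complex, CREB/ATF factors and NF-Y), while NF-kappaB and interferon regulatory factors (IRF) bind sites further upstream. Immune cells and endothelium carry much class I, and kidney tubule cells are known to raise it under interferon.

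The promoters of the heavy chains and the light chain are shown because they hold the elements by which these genes are known to be controlled. The 250 bases before each start are written 5′ to 3′ on the gene's own strand, from RefSeq (GRCm38.p6): H2-K1 at chr17:34000348-34000597 (minus strand; before the first of the 2 starts listed for it, which lies inside the gene's full extent), H2-D1 at chr17:35262844-35263093 (plus strand) and B2m at chr2:122147437-122147686 (plus strand). Capitals mark the kappaB pattern GGGATTCCC, an IRF pattern (GAANNGAAA or AAANNGAAA, on either strand; the first letter sets the patterns apart), and the X2 box core TGACG and Y box core ATTGG where 20 bases separate them.

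H2-K1: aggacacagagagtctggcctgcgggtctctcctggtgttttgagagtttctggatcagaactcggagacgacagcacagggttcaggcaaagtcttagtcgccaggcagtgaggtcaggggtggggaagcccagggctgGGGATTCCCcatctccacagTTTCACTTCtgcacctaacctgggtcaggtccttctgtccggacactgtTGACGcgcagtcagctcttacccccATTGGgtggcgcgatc

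H2-D1: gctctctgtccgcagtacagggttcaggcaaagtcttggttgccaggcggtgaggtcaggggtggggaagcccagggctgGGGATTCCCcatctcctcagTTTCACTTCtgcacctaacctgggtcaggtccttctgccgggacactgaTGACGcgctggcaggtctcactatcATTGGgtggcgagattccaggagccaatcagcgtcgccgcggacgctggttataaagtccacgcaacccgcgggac

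B2m: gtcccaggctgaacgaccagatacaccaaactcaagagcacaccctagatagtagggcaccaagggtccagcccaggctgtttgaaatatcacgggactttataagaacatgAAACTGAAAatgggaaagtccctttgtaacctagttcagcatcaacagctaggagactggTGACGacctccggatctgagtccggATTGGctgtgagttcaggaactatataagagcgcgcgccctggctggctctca

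Each of the 3 promoters held the X2 and Y box pair. H2-K1 and H2-D1 shared the same order of elements: the kappaB pattern, then GAANNGAAA on the opposite strand, then the box pair. B2m had no match to GGGATTCCC and carried AAANNGAAA upstream of its box pair. The letters searched were chosen after these promoters had been read. Searched on both strands of 32851 RefSeq windows of 300 bases (250 before to 50 after the start), the box pair was in 31 windows (0.0944%), the kappaB pattern in 116 (0.353%), GAANNGAAA in 7.52% and AAANNGAAA in 10.6%. No other of the 8 windows found for the 10 genes held any of these 4 patterns. None of the 8 held GTGGGAA, the core bound by the Notch partner RBPJ (6.38% of all windows). Nlrc5 and Tap2 had no window in the table used.

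The transactivator Nlrc5 (chr8:94434335-94527272, GRCm38.p6) had 5.35, 5.40 and 3.63 FPKM in NICD2 replicates 1 to 3, against 0.35, 0.28 and 0.17 FPKM in wild type. Every NICD2 library was far above every wild type one, and the low wild type level corresponds to an estimated 22 to 42 fragments a library, against 478 to 696 in NICD2. The means were 4.79 ± 1.01 FPKM in NICD2 and 0.267 ± 0.0907 FPKM in wild type (SD, n = 3 each), a ratio of 18.0, and 16.9 without NICD2 replicate 1. On the log2(FPKM + 1) scale the difference was 2.18 ± 0.15 (SE), which ranked 16 from the top of 13765 genes, and it was 3.75 with a pseudocount of 0.1. The gene passed the filter on low values only through its 3 NICD2 libraries.

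H2-K1 (chr17:33996012-34000619), a classical heavy chain, had 159.08, 164.61 and 128.64 FPKM in NICD2 and 42.81, 40.52 and 33.48 FPKM in wild type. The means were 150.8 ± 19.4 FPKM in NICD2 and 38.9 ± 4.86 FPKM in wild type (SD, n = 3 each), a ratio of 3.87, and the groups did not overlap. The log2 difference was 1.93 ± 0.12, and 1.88 ± 0.13 without NICD2 replicate 1, a library that was not the highest of its group here. H2-D1 (chr17:35263094-35267497), the other classical heavy chain, had 71.54, 62.67 and 60.12 FPKM in NICD2 and 25.62, 12.66 and 19.89 FPKM in wild type. Here too the groups did not overlap, with the wider spread in wild type. Its ratio of means was 3.34 and its log2 difference 1.74 ± 0.21, or 1.67 ± 0.23 without NICD2 replicate 1.

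B2m (chr2:122147687-122153082), the light chain shared by all class I molecules, was the most abundant of the 9 genes in both genotypes, with 428.54, 356.59 and 336.57 FPKM in NICD2 and 241.78, 190.07 and 198.26 FPKM in wild type. The groups did not overlap, and the ratio of means was 1.78 (log2 difference 0.83 ± 0.12, or 0.73 ± 0.11 without NICD2 replicate 1). The light chain thus differed less in proportion than the heavy chains. H2-K1 and H2-D1 together came to 53.8, 63.7 and 56.1% of the B2m level in NICD2 and to 28.3, 28.0 and 26.9% in wild type (means of 57.9 ± 5.20% in NICD2 and 27.7 ± 0.724% in wild type, SD, n = 3 each).

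**Figure D1:**
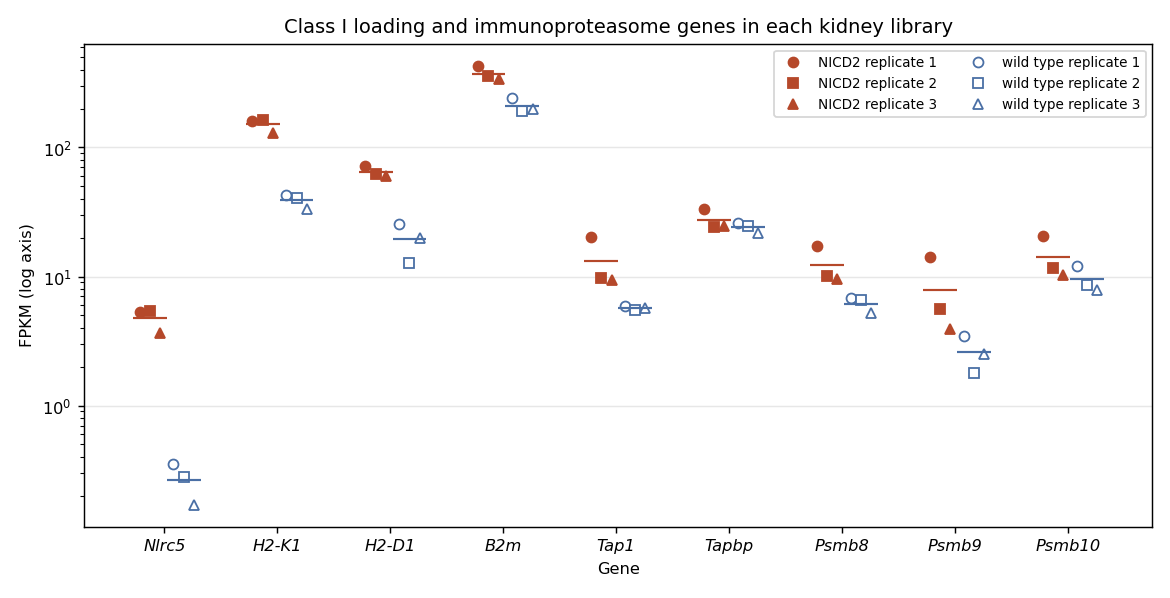
FPKM of the 9 genes with values in each kidney library (log axis), NICD2 in filled red symbols left of wild type in open blue ones, with a line at each group's mean. Nlrc5 sits between 3.63 and 5.40 FPKM in NICD2 and under 1 FPKM in wild type, while for Tapbp and Psmb10 the groups overlap. In the 4 genes Tap1, Psmb8, Psmb9 and Psmb10, NICD2 replicate 1 is at least 1.5 times the mean of NICD2 replicates 2 and 3, on FPKM + 1. It is the highest NICD2 symbol in H2-D1, B2m and Tapbp too, by less.

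Tap1 (chr17:34187556-34197225), a subunit of the transporter that brings peptides into the endoplasmic reticulum, had 20.37, 9.71 and 9.36 FPKM in NICD2 and 5.89, 5.55 and 5.66 FPKM in wild type. NICD2 replicate 1 was 2.14 times the mean of the other two NICD2 libraries, and these were still above all of wild type. The ratio of means was 2.31 with all libraries and 1.67 without NICD2 replicate 1, and the log2 difference 0.99 ± 0.24 and 0.65 ± 0.08. Tap2 (chr17:34204479-34216321), the partner subunit, had no FPKM in any library and is not analysed here. Tapbp (chr17:33919478-33929290) had 33.18, 24.10 and 24.57 FPKM in NICD2 and 26, 24.65 and 21.61 FPKM in wild type. Its groups overlapped, NICD2 replicate 1 was the highest of all 6 libraries, and the log2 difference was 0.16 ± 0.12, or 0.02 ± 0.09 without that library.

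Psmb8 (chr17:34198195-34201454) had 17.30, 10.15 and 9.59 FPKM in NICD2 and 6.80, 6.54 and 5.17 FPKM in wild type. It encodes beta5i, which takes the place of the chymotrypsin-like subunit Psmb5, and its groups did not overlap. The ratio of means was 2.0, and 1.60 without NICD2 replicate 1 (log2 difference 0.86 ± 0.20 and 0.61 ± 0.12). Psmb9 (chr17:34182030-34187330), which encodes beta1i, had 14.27, 5.63 and 3.89 FPKM in NICD2 and 3.45, 1.79 and 2.51 FPKM in wild type. NICD2 replicate 1 was 3.00 times the mean of the other two NICD2 libraries, whose lower value lay close to the highest wild type one. Its log2 difference was 1.17 ± 0.37, and 0.69 ± 0.20 without that library, and its level rests on an estimated 57 to 208 fragments in NICD2 and 26 to 46 in wild type. Psmb10 (chr8:105935728-105938392), which encodes beta2i, had 20.67, 11.58 and 10.27 FPKM in NICD2 and 12.09, 8.61 and 7.80 FPKM in wild type. Its groups overlapped, and the log2 difference was 0.49 ± 0.24, or 0.20 ± 0.16 without NICD2 replicate 1.

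All 9 differences were positive, with a median of 0.99 on the log2 scale, against -0.01 over all genes tested. Nlrc5, H2-K1, H2-D1, B2m, Tap1 and Psmb8 were called higher in NICD2, 6 of 9, where 4.93% of all genes were. In 7 of 9 the groups did not overlap with NICD2 higher, where 15.0% of all genes were so. The genes were chosen on this contrast, and Nlrc5 passed the filter on low values only through NICD2. Nothing is therefore read from these shares or from the counts that follow. Without NICD2 replicate 1 the median difference was 0.69, the same 6 genes were called (3.17% of all genes were called higher) and 7 did not overlap (18.1%). Without wild type replicate 1, 2 or 3 in turn the count was 4 each time, with Tap1 and Psmb8 no longer called.

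**Figure D2:**
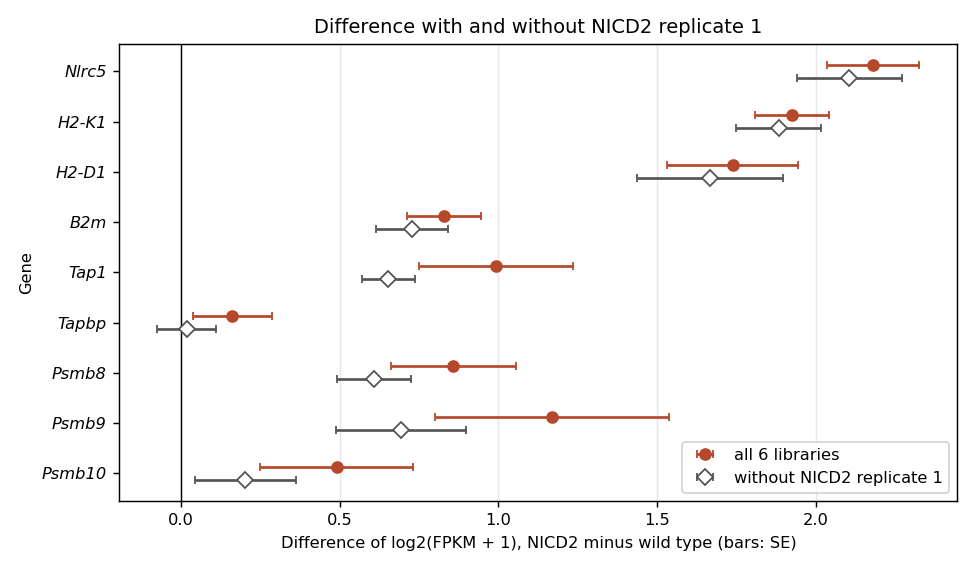
Difference of log2(FPKM + 1), NICD2 minus wild type, for the 9 genes with values (bars are the SE from limma), with all 6 libraries (filled circles) and without NICD2 replicate 1 (open diamonds). Nlrc5, H2-K1 and H2-D1 have the highest values in both, with 2.18 and 2.11 for Nlrc5, while Tap1 moves to 0.65 and Psmb9 to 0.69 without that library.

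The genes differed in how they stood in NICD2 replicate 1. In Tap1, Psmb8, Psmb9 and Psmb10, 4 of 9, that library was at least 1.5 times the mean of NICD2 replicates 2 and 3 on FPKM + 1; over all genes 1.15% were. In Nlrc5, H2-K1, H2-D1 and B2m it was between 1.08 and 1.24 times that mean in FPKM. The median over the 9 genes, as log2 deviation from the wild type mean, was 1.67 in NICD2 replicate 1, 0.77 in replicate 2 and 0.63 in replicate 3, against 0.14, -0.03 and -0.11 in the wild type libraries.

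**Figure D3:**
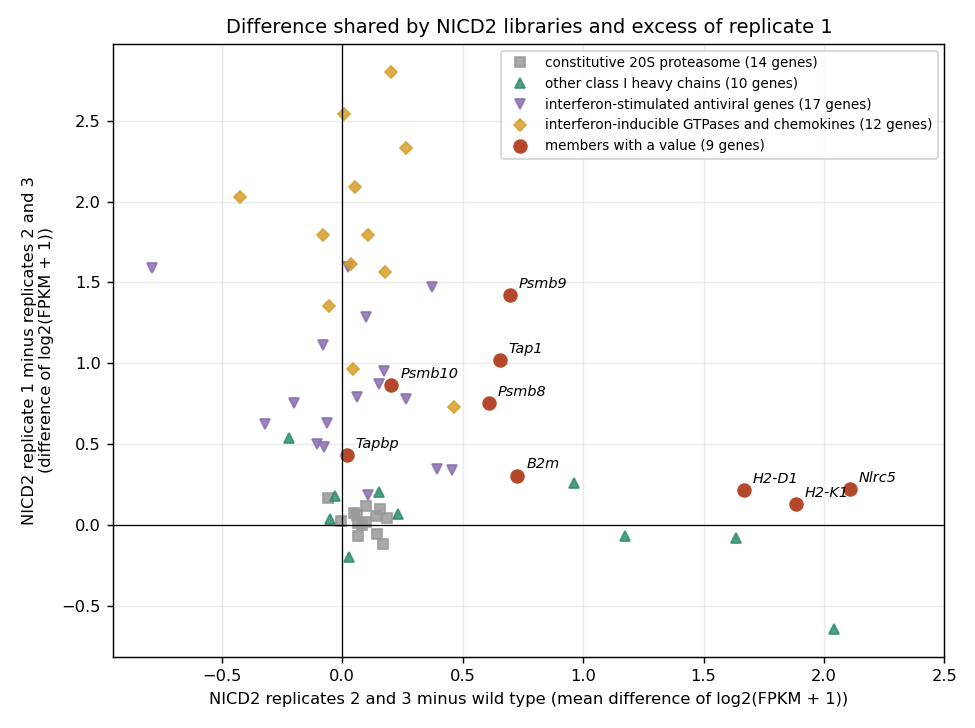
For each gene, the log2(FPKM + 1) difference of NICD2 replicates 2 and 3 from wild type (horizontal) and of NICD2 replicate 1 from NICD2 replicates 2 and 3 (vertical), for the 9 genes and for 4 other lists. Nlrc5, H2-K1 and H2-D1 lie far to the right and low, beside 4 other class I heavy chain genes that lie to the right; Tap1, Psmb8 and Psmb9 lie to the right and high, and the interferon-inducible GTPases and chemokines lie high, with most near 0 on the horizontal axis.

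The constitutive subunits that the immunoproteasome replaces did not pass the test. Psmb5 had 84.87, 96.85 and 80.31 FPKM in NICD2 and 87.78, 77.76 and 74.25 FPKM in wild type (difference 0.13 ± 0.09, adjusted p = 0.434, limma). The adjusted p was 0.615 for Psmb6 and 0.988 for Psmb7. Relative to its counterpart, Psmb8 stood at 20.4, 10.5 and 11.9% of Psmb5 in NICD2 and at 7.75, 8.41 and 6.96% in wild type. Psmb9 stood at 13.2, 5.04 and 4.05% of Psmb6 in NICD2 and at 3.13, 1.93 and 2.61% in wild type. For both pairs all NICD2 libraries were above all wild type ones. Psmb10 stood at 17.6, 9.35 and 9.54% of Psmb7 in NICD2 and at 10.4, 7.70 and 6.51% in wild type, and there the groups overlapped.

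**Figure D4:**
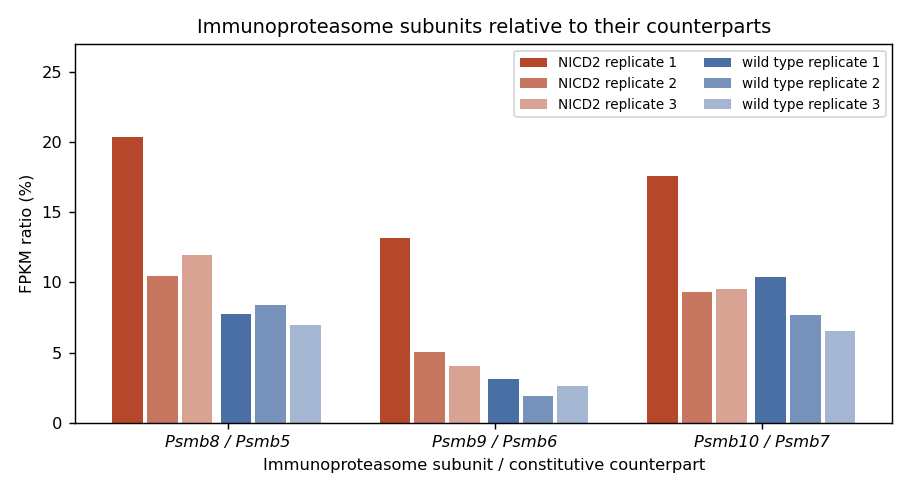
FPKM of each immunoproteasome subunit as a percent of its constitutive counterpart, a bar for each library, NICD2 in red left of wild type in blue. NICD2 replicate 1 is the tallest bar of each set, at 20.4, 13.2 and 17.6%, and the immunoproteasome subunits stay under 21% of the counterpart in every library.

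Other class I and class I-like heavy chain genes, Cd1d1 and Mr1 outside the MHC among them, were measured as well. Of the 10 tested, 4 were called higher in NICD2 and none lower, with a median difference of 0.24. Over all genes 4.93% were called higher. Of the 4, H2-Q8 and H2-Q9 were tested only because of their NICD2 values and are given as a description. H2-Q4 had 53.41, 50.02 and 39.53 FPKM in NICD2 and 23.62, 21.93 and 21.62 FPKM in wild type (1.05 ± 0.11, adjusted p = 6.352e-04, limma). H2-Q7, which encodes a Qa-2 antigen, had 18.16, 21.23 and 17.17 FPKM in NICD2 and 9.59, 6.97 and 7.41 FPKM in wild type (1.15 ± 0.12, adjusted p = 7.386e-04, limma). H2-Q8 had 4.84, 5.74 and 4.65 FPKM in NICD2 and 0.86, 1.45 and 0.72 FPKM in wild type (1.61 ± 0.15). Of its wild type libraries only replicate 2 reached 1 FPKM. H2-Q9 had 1.64, 3.54 and 2.74 FPKM in NICD2 and was listed at 0 in all 3 wild type libraries; it passed the filter only through NICD2, so it had to differ. In H2-Q4 and H2-Q7 the groups did not overlap and NICD2 replicate 1 was not at least 1.5 times the other NICD2 libraries. Their call held in each of the 6 fits that left out 1 library. H2-T23, the gene of Qa-1, differed by -0.04 (adjusted p = 0.911, limma), H2-T22 by 0.22 (adjusted p = 0.140) and H2-M3 by 0.25 (adjusted p = 0.38), and H2-Q2, Cd1d1 and Mr1 were not called either.

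Class I genes are close copies of each other. The table places H2-K1, H2-D1, Tap1, Tap2, Tapbp, Psmb8 and Psmb9 on alternate or unplaced sequences and not on the chromosome itself, as it does 1356 of 23669 rows, and the sources used here do not give how reads that match several copies were divided. The values of H2-K1, H2-D1 and of the H2-Q genes, among which H2-Q7, H2-Q8 and H2-Q9 are near-identical, are uncertain for that reason. Nlrc5, B2m and Psmb10 lie on chromosome sequence outside the MHC.

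Of 14 genes for chaperones and peptidases of class I loading, 1 was called higher, near the 4.93% of all genes. Erap1, which trims peptides in the endoplasmic reticulum, had 16.33, 12.75 and 14.14 FPKM in NICD2 and 8.20, 10.84 and 11.02 FPKM in wild type (0.49 ± 0.12, adjusted p = 0.0454, limma), and the call was lost in 5 of the 6 fits that left out 1 library, with adjusted p up to 0.132. Tapbpl, the tapasin relative that edits peptides, and the chaperones Pdia3 and Hspa5 had adjusted p of 0.268, 0.269 and 0.12. No gene was called among the 14 of the constitutive 20S core, the 18 of the 19S regulatory particle and the 10 activators, inhibitors and assembly factors, whose median differences were 0.09, 0.11 and 0.10; limma gave an unadjusted p under 0.05 for 2, 4 and 1 of them, as for 25.1% of all genes. Psme2, a subunit of the interferon-inducible activator PA28, had 92.06, 72.11 and 70.45 FPKM in NICD2 and 64.01, 62.20 and 59.24 FPKM in wild type (adjusted p = 0.0871, limma). None of the 10 factors that bind class I promoters was called (2 had an unadjusted p under 0.05), with Rfx5, the DNA-binding subunit of the RFX complex, at a difference of -0.06, and Nfkb1 at 0.16 (adjusted p = 0.132, limma).

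Genes under interferon control are known to include all of the immunoproteasome and Tap1. Of 17 tested interferon receptor and signalling genes, 1 was called higher, again near the 4.93% of all genes. Irf9, a transcription factor of type I interferon signalling, had 28.59, 14.71 and 16.06 FPKM in NICD2 and 8.55, 7.98 and 8.45 FPKM in wild type (1.10 ± 0.21, adjusted p = 0.0138, limma). The call was lost in 1 of the 6 fits that left out 1 library, without wild type replicate 2 (adjusted p = 0.0602, limma). Without NICD2 replicate 1 the difference of Irf9 was 0.81 (adjusted p = 9.598e-04, limma). Irf1, a transcription factor of class I and immunoproteasome genes, had 28.84, 12.82 and 12.64 FPKM in NICD2 and 9.94, 8.97 and 9.35 FPKM in wild type (0.77, adjusted p = 0.111, limma). Its groups did not overlap, and without NICD2 replicate 1 the difference was 0.40 and passed the test (adjusted p = 0.0286). Without that library 2 of the 17 genes, Irf9 and Irf1, were called higher, where 3.17% of all genes were. The interferon genes Ifng, Ifnb1, Ifnl2 and Ifnl3 were listed without a value.

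Of 17 tested antiviral interferon-stimulated genes, 1 was called higher, Ifih1, an RNA sensor, with 5.72, 3.96 and 4.65 FPKM in NICD2 and 2.99, 3.30 and 2.83 FPKM in wild type (0.51, adjusted p = 0.0358, limma), where 4.93% of all genes were called higher; the call was lost in 5 of the 6 fits that left out 1 library. NICD2 replicate 1 was at least 1.5 times the mean of NICD2 replicates 2 and 3, on FPKM + 1, in 12 of these 17 genes. Over all genes 1.15% were so. The median difference over the 17 genes was 0.33 with all libraries and 0.06 without NICD2 replicate 1. Without that library no gene was higher and 1, Ifit3, was lower (-0.79, adjusted p = 0.0141, limma), where 2.13% of all genes were called lower. None of 12 tested interferon-inducible GTPases and chemokines was called (1 had an unadjusted p under 0.05), and NICD2 replicate 1 was at least 1.5 times the other NICD2 libraries in all 12 of them. Irgm1, for example, had 50.86, 13.57 and 14.37 FPKM in NICD2 and 13.47, 12.04 and 13.28 FPKM in wild type. The summed level of the list was 191.1, 43.01 and 43.95 FPKM in NICD2 and 42.00, 39.98 and 40.32 FPKM in wild type. The part of the excess in NICD2 replicate 1 in the levels of Tap1, Psmb8, Psmb9 and Psmb10 was not tested; values without that library are given above.

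Class II presentation, the pathway of antigen-presenting cells, was measured in 7 tested genes, and none was called (2 had an unadjusted p under 0.05 in limma), with a median difference of 0.00. Its transactivator Ciita, a relative of Nlrc5, had 0.63, 0.28 and 0.14 FPKM in NICD2 and 0.19, 0.30 and 0.23 FPKM in wild type. Cd74, the invariant chain, had 23.85, 23.26 and 18.11 FPKM in NICD2 and 30.00, 21.19 and 15.61 FPKM in wild type. H2-Aa had 5.45, 2.96 and 2.06 FPKM in NICD2 and 7.19, 5.18 and 0.19 FPKM in wild type, a wide spread within both groups. Without NICD2 replicate 1, H2-DMb1 and H2-DMb2, chains of the peptide exchange factor H2-M, were lower in NICD2 (adjusted p = 0.0286 and 0.0239, limma), where 2.13% of all genes were called lower.

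Immune cells carry high levels of class I, so their markers were read as whole lists. In a bulk library, fewer cells of a type and less RNA per cell cannot be told apart. Of 10 genes shared by all leukocytes, none of 8 tested was called, and none had an unadjusted p under 0.05 in limma; their summed level was 59.5, 51.6 and 39.3 FPKM in NICD2 and 67.7, 44.2 and 39.3 FPKM in wild type. Ptprc (CD45) had 3.86, 2.88 and 2.53 FPKM in NICD2 and 3.16, 2.96 and 2.97 FPKM in wild type. Of 12 macrophage markers, none of 10 tested was called (3 had an unadjusted p under 0.05), the median difference was 0.29, or 0.15 without NICD2 replicate 1, and the sum was 191.2, 141.4 and 140.4 FPKM in NICD2 and 152.8, 126.4 and 115.0 FPKM in wild type. NICD2 replicate 1 was thus highest there too, and the part of macrophages in the class I levels was not tested. All 9 NK cell markers were below 1 FPKM in every library. The 7 B cell markers summed to between 4.45 and 5.59 FPKM in NICD2 and between 4.65 and 10.7 FPKM in wild type. The 8 dendritic cell markers summed to between 6.73 and 8.90 FPKM in NICD2 and between 10.2 and 10.7 FPKM in wild type. Most of that sum was 1 gene, Zbtb46, with 5.48, 6.63 and 7.21 FPKM in NICD2 and 8.27, 8.57 and 8.32 FPKM in wild type. Of the 8, 6 were below 1 FPKM in every library. The 10 neutrophil markers summed to between 13.4 and 25.7 FPKM in NICD2 and between 23.5 and 35.1 FPKM in wild type. Of the B cell, dendritic cell and neutrophil markers, none of the 6 tested was called (3 had an unadjusted p under 0.05).

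The 12 T cell markers summed to between 8.41 and 10.05 FPKM in NICD2 and between 4.42 and 10.7 FPKM in wild type. Only 2 were tested, and 1, Cd8a, was called higher, where 4.93% of all genes were. Cd8a, the alpha chain of the receptor that binds class I on T cells, had 5.10, 4.37 and 3.76 FPKM in NICD2 and 1.08, 0.78 and 0.77 FPKM in wild type (1.52 ± 0.12). Of its wild type libraries only replicate 1 reached 1 FPKM. Cd8a thus passed the filter only through NICD2 and is given as a description. Its partner Cd8b1 had 0.05, 0.14 and 0 FPKM in NICD2 and 0.58, 0.23 and 0.05 FPKM in wild type, and the T cell receptor component Cd3e had 0.09, 0.18 and 0.14 FPKM in NICD2 and 0.43, 0.23 and 0.09 FPKM in wild type. Lck, a kinase of T cell receptor signalling and the other tested marker, had 3.27, 2.59 and 2.67 FPKM in NICD2 and 3.55, 1.92 and 2.33 FPKM in wild type (adjusted p = 0.713, limma). The remaining 10 markers were below 1 FPKM in every NICD2 library and reached at most 1.18 FPKM in wild type (Cd3g in replicate 1).

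Of 10 endothelial markers, 4 were lower in NICD2 (3.86% of all genes were), and 1 or 2 when any 1 of the 6 libraries was left out. Without NICD2 replicate 1 the number was 1, where 2.13% of all genes were lower. The summed level of the 10 markers was 405.1, 423.8 and 427.2 FPKM in NICD2 and 536.5, 517.3 and 468.6 FPKM in wild type. Of 12 kidney epithelial markers, 6 were lower (3.86% of all genes were) and 1, Umod, was higher (4.93% of all genes were). Aqp2, the water channel of the collecting duct, was among the lower ones. Cdh16, whose promoter drives the recombinase, had 236 ± 19.6 FPKM in NICD2 and 274 ± 20.1 FPKM in wild type (SD, n = 3 each). The part of this epithelial make-up in the class I levels was not tested. Of 8 erythroid markers none of 6 tested was called (1 had an unadjusted p under 0.05). Slc4a1 was lower without NICD2 replicate 1, where 2.13% of all genes were. The sum of the 8 markers was highest in wild type replicate 1, at 6106 FPKM. It was 2281 to 3711 FPKM in NICD2 and 2580 and 3112 FPKM in the other wild type libraries.

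Genes outside the 10 whose profile was most like their mean standardised profile over the 6 libraries were Ccnh, Gss, Eif3i, Elf5, Smtnl2, Haus8, Prss8 and St14, with Pearson r between 0.990 and 0.997, among 12459 genes with a mean of at least 2 FPKM. Over the 5 libraries without NICD2 replicate 1 a different 8 led, Sumo3, Wbscr16, Rab15, Tm9sf1, Rrp15, Pgp, Pfkl and Diexf. The genes' own r with their profile ran from 0.797 (Tapbp) to 0.986 (Psmb8) over 6 libraries. Over the 5 libraries without NICD2 replicate 1 the r of these genes ran from 0.422 (Tapbp) to 0.985 (B2m). Each of them is part of the profile, which raises its r. The points share genotype and library, and with so few of them many genes reach such values, so these are descriptions only. Elf5, a transcription factor of the collecting duct, had 17.33, 13.39 and 12.40 FPKM in NICD2 and 9.69, 9.10 and 9.13 FPKM in wild type.

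The promoter pair was also read the other way, from the letters to the levels. Of 27025 genes with a window, 27 held the X2 and Y box pair at the same spacing, and 19 of those were tested. Besides H2-K1, H2-D1 and B2m, which the letters were read from, Nrarp and Nasp (adjusted p = 0.0436, limma) were higher and Tecpr1 (adjusted p = 0.0441, limma) was lower, where 4.93% of all genes were called higher and 3.86% lower; these genes are named after their values were seen, and the median difference over the 19 was 0.15. H2-M3, a heavy chain gene outside the classical set, held the pair and was not called. Of the 23 other heavy chain genes listed, 14 had a window, and 10 of these held an IRF pattern. Over all windows 7.52% held GAANNGAAA and 10.6% AAANNGAAA. The 10 were H2-Q4 and H2-Q7, which were called higher, H2-T22, H2-T23, H2-M3 and Mr1, which were tested and not called, and H2-Q6, H2-Q10, H2-T3 and H2-M2, which were not tested. H2-Q7 and the untested H2-Q6 held the kappaB pattern too (0.353% of all windows). H2-Q7 also held the 2 box cores with 19 bases between them.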

How the data were processed

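Kidney RNA was taken with Trizol and libraries were made with an Illumina TruSeq kit, per the labels' protocols. The authors deposited 1 table with a row per gene and FPKM to 2 decimals for each library, per the file headers; the sources used here do not give its counting step or annotation. Bowtie 0.12.2 and the build mm8 are named in the submitters' processing notes, whereas the sequences named in the table are those of GRCm38; gene coordinates and promoters are RefSeq's (GRCm38.p6), matched by gene ID. Gene length, a column the authors deposited, served as an other value in estimating depth. The table has 4010 rows without a value, and 32 columns of the authors' means and tests were not used.

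Groups and replicate numbers came from the labels. limma 3.58.1 (R 4.3.3) was fitted with a mean-variance trend to log2(FPKM + 1) of genes that reached 1 FPKM in 3 or more libraries, with p-values adjusted over all of them; on simulated data it was tested before use. Fragments were estimated from low values, of which 79.4 to 83.2% a library lay within 0.15 fragments of a whole number, so fragment numbers are approximate and cover counting error only. Alternatives were a pseudocount of 0.1, no filter, a stricter filter (mean of at least 5 FPKM), median-ratio and upper-quartile scaling, a replicate block and each library left out. The members and gene lists were chosen with earlier results of these data known. Named genes were the 10 genes, the genotype checks, Psmb5, Psmb6 and Psmb7, called genes and up to 4 with the smallest p of each list, and the 8 most alike; genes outside that rule are defining markers, chosen after their values were seen. Of the promoter patterns searched, 1 is not reported here.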

Additional observations from a re-analysis of the deposited data

How the results depend on the processing

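The median difference of the 9 genes kept its direction under every alternative run, with 0.69 to 1.18 when 1 library was left out, and 4 to 7 of them were called. Over all genes, leaving out 1 library gave 388 to 589 higher and 236 to 411 lower, against 679 and 531; without NICD2 replicate 1 these were 436 and 293, without wild type replicate 2 388 and 236, and without wild type replicate 3 451 and 329. Fewer samples were fitted there. With the stricter filter 2 other heavy chains were called, since H2-Q8 and H2-Q9 were not tested, and Nlrc5 has no value. No chaperone or peptidase was called without the filter or with the replicate block (0 each, against 1 for Erap1). Antiviral genes called higher were 0 without the filter and 2 with the block. Class II genes called lower were 1 with the stricter filter, 1 with upper-quartile scaling and 2 with the block. With 1 library left out, the lists gave 0 to 1 chaperones, 0 to 2 interferon signalling genes, 0 to 2 higher and 0 to 1 lower antiviral genes, 0 to 1 GTPases and 0 to 2 lower class II genes. The cause was not tested for those without a stated one. Same-numbered libraries did not deviate together (correlations -0.033, 0.059 and -0.045), so the numbers do not pair them. NICD2 replicates 1, 2 and 3 had 0.246, 0.207 and 0.235 with wild type replicates 3, 1 and 2. They had -0.253, -0.25 and -0.158 with wild type replicates 2, 3 and 1. The cause of these was not tested. With the replicate block 616 genes were higher and 439 lower, 8 of the 9 genes were called, and 4 macrophage markers were higher. The scalings moved the median of all genes by less than 0.02. Depth limits Nlrc5 in wild type and Psmb9.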
